A study of Mus musculus with 10 samples.

Results

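The genes described here encode the synaptic vesicle and its release machinery, 43 mouse genes listed by name. The list was chosen with earlier results of these data known. All 43 were found among the 55536 genes of the count table, and all 43 passed the filter on low counts that kept 20301 genes. The study profiled ribosome-bound RNA from S1DZ, the dysgranular zone of the primary somatosensory cortex, of mice whose Cre recombinase is driven by an interleukin-17 receptor gene. There were 3 libraries of genotype Il-17ra-Cre, 3 of Il-17rb-Cre and 4 of Il-17rc-Cre. Mice of all 3 genotypes received the same virus, AAV5-EF1α-Flex-EGFPL10a, at 400 nl per side and 0.1 µl per minute, and were left for 4 weeks. Where Cre is present the virus makes GFP-tagged L10a, a protein of the large ribosomal subunit, and antibodies against GFP pull the tagged ribosomes down with their RNA (translating ribosome affinity purification, TRAP). The EF1α promoter is active in many cell types, and which cells carried the tag was not tested. The labels give no strain, age or sex, and do not say whether replicates came from separate animals or from pools. The p-values below therefore measure the spread between these samples, which may be technical. In pulled-down RNA, more cells of a type and more RNA per cell cannot be told apart.

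At a synapse, neurotransmitter is stored in vesicles and released when a vesicle fuses with the cell membrane. Fusion is driven by the SNARE proteins, which zip together from the vesicle side (synaptobrevins, the Vamp genes) and from the membrane side (syntaxin and SNAP-25), and are afterwards pulled apart by the ATPase NSF and its SNAP adaptors. Synaptotagmins and Doc2 proteins bind calcium and couple fusion to the action potential, complexins clamp and assist the SNARE complex, and proteins of the active zone (RIM, Munc13, Bassoon, Piccolo, liprin) hold and prime vesicles at the release site. In the cortex these genes are mostly neuronal, but several have relatives that act in other cells.

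Promoter sequences from RefSeq (GRCm38.p6, 250 bases before to 50 after a start) were matched by symbol for 31 of the 43 genes and not for 12. One motif that release genes can share is the cAMP response element, the site of the activity-regulated factor CREB. The part of this motif in the levels below was not tested. The full element TGACGTCA, which reads the same on both strands, was present in 2 of 41 release gene promoters (4.88%), against 1.79% of 32851 promoters of that length. The shorter form TGACG, which every full element also holds, was in 9 of 41 (22%) against 20.8% of all, searched on both strands. The site RE1 of the neuronal repressor REST was in 0 of 41 against 0.0639% of all. A match is only a description of these letters. The promoters with the full element were those of Syn1 (chrX:20920909-20921168, minus strand) and Napa (chr7:16098330-16098589, plus strand), printed here from 250 bases before the RefSeq start, for 260 bases, with the element in capitals.
Syn1: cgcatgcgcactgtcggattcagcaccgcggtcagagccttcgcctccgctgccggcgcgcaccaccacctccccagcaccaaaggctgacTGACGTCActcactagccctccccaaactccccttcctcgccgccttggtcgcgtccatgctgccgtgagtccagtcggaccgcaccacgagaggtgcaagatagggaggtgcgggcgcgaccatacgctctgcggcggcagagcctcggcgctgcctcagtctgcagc
Napa: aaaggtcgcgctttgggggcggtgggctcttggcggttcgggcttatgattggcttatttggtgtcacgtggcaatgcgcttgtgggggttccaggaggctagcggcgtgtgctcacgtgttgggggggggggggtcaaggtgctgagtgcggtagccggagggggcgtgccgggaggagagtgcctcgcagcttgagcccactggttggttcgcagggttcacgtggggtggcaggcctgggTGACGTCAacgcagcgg
In Syn1 the element lies 159 to 152 bases before the start, and in Napa it begins 7 bases before the start and ends on it.

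Library totals were 39692925 to 165844244 counts. Among the release genes the lowest count in any library was 12, for Doc2b. Some libraries stood apart within their group, and the groups differed in markers of other cells. The oligodendrocyte markers summed to 45741 and 31283 CPM (counts relative to the library total, scaled by TMM as are all CPM values here) in Il-17ra-Cre replicates 1 and 2 and to 5488 in replicate 3. In Il-17rc-Cre replicates 2 and 4 they summed to 4059 and 2499, against 1258 and 1062 in replicates 1 and 3. The mouse Rpl10a gene was at 58.7 and 70.9 CPM in Il-17ra-Cre replicates 1 and 2 and at 678.8 in replicate 3. It was at 602.4 to 669.6 CPM in Il-17rb-Cre and at 190.8 to 267.1 CPM in Il-17rc-Cre. The Il17rb transcript was not higher in its own driver's libraries (0.714 ± 0.138 CPM, SD, n = 3, against 2.26 ± 1.31, n = 3, in Il-17ra-Cre and 1.27 ± 1.13, n = 4, in Il-17rc-Cre). In the order Il-17ra-Cre, Il-17rb-Cre and Il-17rc-Cre, Il17ra was at 18.5 ± 2.53, 26.5 ± 7.31 and 18.8 ± 2.97 CPM. Il17rc was at 29.4 ± 10.4, 1.89 ± 1.15 and 28.3 ± 8.37 CPM. None of the 3 transcripts thus had its highest mean in its own driver's libraries, so directions rest on the labels as deposited.

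With libraries scaled by TMM, most release genes were higher in the libraries labelled Il-17rb-Cre than in either other group. Of the 43 genes, 34 were higher and 0 lower than in Il-17ra-Cre, where 16.4% of all 20301 genes tested were called higher and 24.4% lower (edgeR quasi-likelihood test, Benjamini-Hochberg adjusted p under 0.05). Against Il-17rc-Cre, 34 were higher and 0 lower, where 17.7% of all genes were called higher and 21.9% lower. At an unadjusted p under 0.05, 0 and 1 of the 43 were lower in these comparisons, and by DESeq2 0 and 1 and by limma voom 1 and 2 were called lower. The same 34 genes made up both counts; both comparisons share the Il-17rb-Cre libraries, so they are not independent. The median log2 fold change of the 43 was 1.57 against Il-17ra-Cre, where that of all genes was -0.092, and 1.36 against Il-17rc-Cre, where that of all genes was 0.023. When libraries were instead scaled to pan-neuronal marker genes, the median against Il-17rc-Cre turned to -0.12 and the count of genes higher was 0. Every Il-17rb-Cre library lay above every Il-17ra-Cre library for 35 of the 43 genes, against 24.6% of all genes tested, and above every Il-17rc-Cre library for 37, against 27.5% of all.

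**Figure D1:**
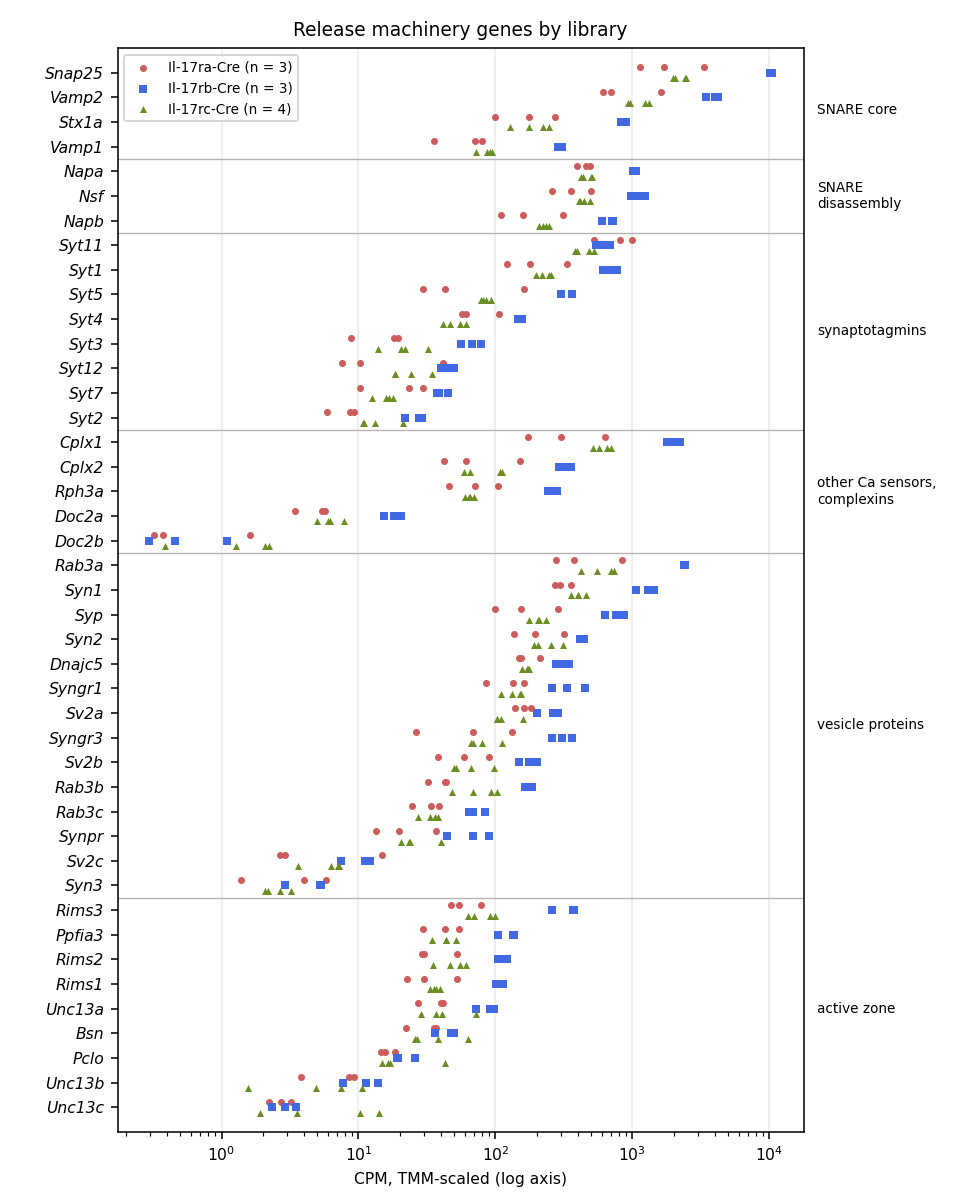
Level of each of the 43 release genes in each library, in CPM scaled by TMM on a log axis, grouped by role and ordered by mean level, with 1 point per library. Squares (Il-17rb-Cre) lie to the right of the other points for most genes, as for Snap25 at 10112 to 10553 CPM, and overlap with another group for Syt11, Syt12, Doc2b, Syn3, Sv2c, Unc13b, Unc13c, Bsn and Pclo.

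The levels spanned from Snap25 at 4610 CPM to Doc2b at 1.01 CPM on average over the 10 libraries, with 37 of 43 genes at 10 CPM or more and 22 at 100 CPM or more. Per kilobase of exon, Snap25 had the highest mean of the 43 in each group, at 303.5 CPM per kb in Il-17ra-Cre, 1523 in Il-17rb-Cre and 327.1 in Il-17rc-Cre. The next 3 were Vamp2, Rab3a and Cplx1 in every group, in an order that differed between groups. In Il-17rb-Cre they were at 1021, 1080 and 915.1 CPM per kb, and in Il-17rc-Cre at 292.6, 270.2 and 278.6. Among the synaptotagmins, Syt11 had the highest mean per length in Il-17ra-Cre (149.6 CPM per kb) and Il-17rc-Cre (85.8), and Syt5 in Il-17rb-Cre (136.0, against 118.4 for Syt11).

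All 4 core SNARE genes were higher in Il-17rb-Cre in both comparisons. Snap25, the membrane SNARE that supplies a pair of helices to the complex (ENSMUSG00000027273, GRCm38 chromosome 2, 136713453 to 136782428), was at 1142, 1692 and 3348 CPM in the Il-17ra-Cre libraries, in the order of their replicate numbers. The Il-17rb-Cre libraries held 10553, 10112 and 10363 CPM and those of Il-17rc-Cre 2413, 2047, 2455 and 1969 CPM. The Il-17rb-Cre libraries lay close together and above every other library, while the Il-17ra-Cre libraries spread widely. The log2 fold change was 2.33 ± 0.33 (SE) against Il-17ra-Cre (edgeR adjusted p = 0.00049), a 5.02-fold difference, and 2.22 ± 0.30 against Il-17rc-Cre (edgeR adjusted p = 0.000323). Stx1a, the syntaxin of the cell membrane (chromosome 5, 135023482 to 135051100), was at 99.8, 176.1 and 272.9 CPM in Il-17ra-Cre, 826.5, 887.4 and 897.7 CPM in Il-17rb-Cre and 128.5 to 247.1 CPM in Il-17rc-Cre. Its groups did not overlap on either side of Il-17rb-Cre, and its log2 fold changes of 2.25 ± 0.35 and 2.17 ± 0.32 were close to those of Snap25. Vamp2 (chromosome 11, 69088490 to 69092384), the main vesicle SNARE of the forebrain, was at 613.8, 702.3 and 1611 CPM in Il-17ra-Cre and 3438, 4206 and 4021 CPM in Il-17rb-Cre, with 928.3 to 1319 CPM in Il-17rc-Cre. Vamp1, its close relative, was at 35.5, 71.3 and 79.2 CPM, 290.8, 304.8 and 286.5 CPM, and 72.6 to 94.3 CPM in the same order. Both Vamp genes were thus higher in Il-17rb-Cre by similar factors, 3.99-fold and 4.74-fold against Il-17ra-Cre. Scaled to the sum of pan-neuronal markers, all 4 stayed higher than in Il-17ra-Cre, between 1.13 and 1.47 on the log2 scale, and none of the 4 passed against Il-17rc-Cre.

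The 3 genes that take used SNARE complexes apart were also higher in both comparisons, by less. Nsf, the ATPase, was at 257.6, 358.1 and 500.0 CPM in Il-17ra-Cre, 982.2, 1102 and 1232 CPM in Il-17rb-Cre, and 409.2 to 488.7 CPM in Il-17rc-Cre. Its log2 fold changes were 1.57 ± 0.23 (edgeR adjusted p = 0.000508) and 1.33 ± 0.21 (0.000712). Napa, the α-SNAP adaptor that is expressed widely in the body, had the smallest change of the 3 at 1.24 ± 0.14 and 1.18 ± 0.13. It was at 395.4 to 486.9 CPM in Il-17ra-Cre, at 1069, 1020 and 1069 CPM in Il-17rb-Cre, and at 424.3 to 504.0 CPM in Il-17rc-Cre, so its replicates were tighter than those of most release genes. Napb, the brain-enriched β-SNAP, was higher by 1.81 ± 0.32 and 1.58 ± 0.29. The direction of Napa and Nsf turned against Il-17rc-Cre when libraries were scaled to the sum of pan-neuronal markers (-0.32 and -0.16, edgeR adjusted p = 0.145 and 0.609).

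Synaptotagmins were not uniform. Of 8 genes, 6 were higher in Il-17rb-Cre in both comparisons (Syt1, Syt2, Syt3, Syt4, Syt5 and Syt7) and 2 passed in neither (Syt11 and Syt12). Syt1 (chromosome 10, 108497650 to 109010982), the fast calcium sensor of most forebrain synapses, was at 120.9, 178.2 and 334.1 CPM in Il-17ra-Cre and 611.3, 776.9 and 684.9 CPM in Il-17rb-Cre. It was at 218.2, 252.7, 246.8 and 197.2 CPM in Il-17rc-Cre, so no library outside Il-17rb-Cre reached the Il-17rb-Cre range. Its log2 fold changes were 1.71 ± 0.32 (edgeR adjusted p = 0.00205) and 1.60 ± 0.29 (0.00176). Syt11 (chromosome 3, 88744700 to 88775164), which does not bind calcium and acts on vesicle trafficking in neurons and glia, had a different order. It was at 995.5, 818.8 and 521.1 CPM in Il-17ra-Cre, 543.1, 690.2 and 615.1 CPM in Il-17rb-Cre, and 384.2, 525.8, 484.1 and 391.8 CPM in Il-17rc-Cre. Its highest libraries were the Il-17ra-Cre replicates 1 and 2, and Il-17rb-Cre overlapped with Il-17ra-Cre but not with Il-17rc-Cre. The log2 fold changes were -0.34 ± 0.24 against Il-17ra-Cre and 0.46 ± 0.22 against Il-17rc-Cre (edgeR adjusted p = 0.283 and 0.119). Without Il-17ra-Cre replicate 3 both passed, at -0.56 and 0.47 (0.0288 and 0.0311). Scaled to the sum of pan-neuronal markers, Syt11 was lower in Il-17rb-Cre in both comparisons, by -1.13 and -1.02.

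The less abundant synaptotagmins gave calls of unequal firmness. Syt5, found on dense-core vesicles, was at 29.8, 43.2 and 162.6 CPM in Il-17ra-Cre and at 303.7, 364.2 and 303.3 CPM in Il-17rb-Cre, so the Il-17ra-Cre group itself spread widely. Syt3, a slow high-affinity sensor, was higher by 2.12 ± 0.36 and 1.61 ± 0.32. Syt4, which is induced by neuronal activity, was higher by 1.02 ± 0.24 against Il-17ra-Cre and 1.57 ± 0.23 against Il-17rc-Cre. About 14.5% of its exonic length overlaps a predicted gene whose reads cannot be told apart without strand. Syt7, a sensor for asynchronous release and facilitation, was higher by 0.94 ± 0.32 against Il-17ra-Cre (edgeR adjusted p = 0.0402) and 1.36 ± 0.30 against Il-17rc-Cre (0.00513). The first of these calls was lost when any of 8 single libraries was left out (Il-17ra-Cre replicate 1 or 2, any Il-17rb-Cre replicate, or Il-17rc-Cre replicate 1, 2 or 3), with adjusted p from 0.0506 to 0.106. Syt2, the sensor of fast-spiking interneurons and hindbrain synapses, was higher by 1.73 ± 0.30 and 0.91 ± 0.27. Its call against Il-17rc-Cre (edgeR adjusted p = 0.0243) was lost without Il-17rb-Cre replicate 2 or 3 or Il-17rc-Cre replicate 1, 3 or 4 (0.0554 to 0.107). Syt12, a calcium-independent vesicle protein, was at 7.52, 10.3 and 41.5 CPM in Il-17ra-Cre and 39.8, 50.2 and 45.1 CPM in Il-17rb-Cre. Its Il-17ra-Cre replicate 3 lay in the Il-17rb-Cre range, and without that library both of its differences passed, at 2.34 and 0.91 (edgeR adjusted p = 0.000311 and 0.0125).

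Among the other calcium sensors and complexins, 4 of 5 genes were higher in both comparisons and Doc2b in neither. Cplx1 (chromosome 5, 108518554 to 108550024), the complexin of fast synapses, was at 172.7, 301.7 and 634.9 CPM in Il-17ra-Cre, 1806, 2221 and 1982 CPM in Il-17rb-Cre and 701.2, 572.1, 652.9 and 513.6 CPM in Il-17rc-Cre. The log2 fold change was 2.44 ± 0.40 against Il-17ra-Cre (edgeR adjusted p = 0.000965) and 1.72 ± 0.35 against Il-17rc-Cre (0.00348). Cplx2, the complexin typical of excitatory neurons, was at 42.2, 61.1 and 151.4 CPM, at 356.5, 311.5 and 291.4 CPM, and at 59.1 to 111.1 CPM, in the same order of groups. It was higher by 1.91 ± 0.44 and 1.90 ± 0.40. Rph3a, a Rab3 effector that binds SNAP-25, was higher by 1.84 ± 0.25 and 2.04 ± 0.23. Doc2a, a sensor of spontaneous and asynchronous release, was at 3.42 to 5.71 CPM in Il-17ra-Cre, 15.3 to 20.6 CPM in Il-17rb-Cre and 4.96 to 7.79 CPM in Il-17rc-Cre. About 39.4% of the exonic length of Doc2a overlaps Ino80e, a chromatin remodelling gene at 45.1, 66.4 and 45.3 CPM in the 3 groups, so its level is uncertain. Doc2b, at 0.294 to 2.22 CPM over all libraries, had differences of -0.35 ± 0.83 and -1.28 ± 0.80 (edgeR adjusted p = 0.767 and 0.233). Its difference against Il-17rc-Cre passed by limma voom (-1.71, adjusted p = 0.023) and when libraries were scaled to pan-neuronal markers by sum (-2.83, edgeR adjusted p = 0.0181) or geometric mean (-2.76, 0.0116).

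**Figure D2:**
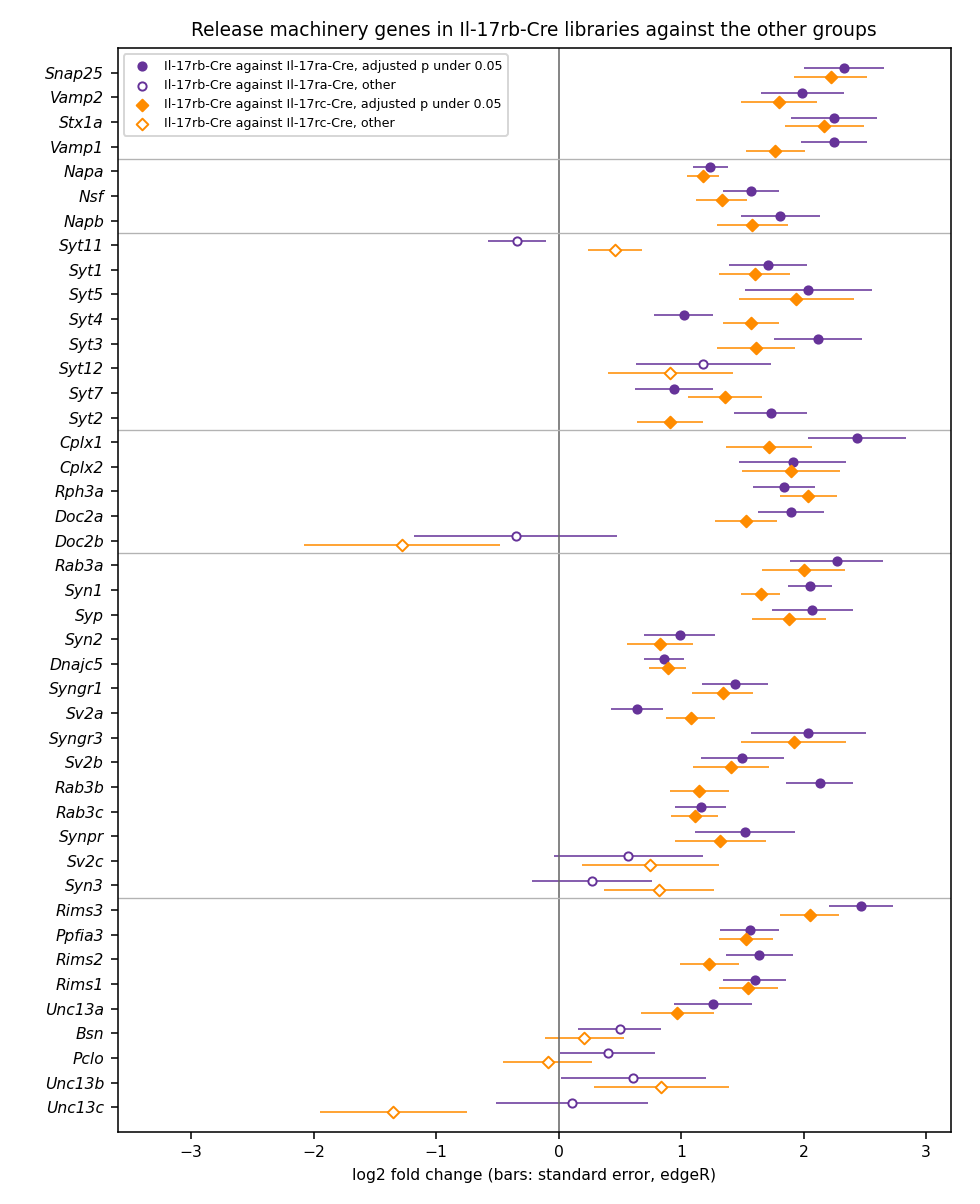
The log2 fold change of each release gene in Il-17rb-Cre against Il-17ra-Cre (circles) and against Il-17rc-Cre (diamonds), from TMM-scaled counts, with edgeR standard errors as bars. Filled symbols passed an adjusted p under 0.05. The values run from -1.35 (Unc13c) to 2.47 (Rims3), with the 9 genes that passed in neither comparison at 1.18 or below, and on a scale set by the pan-neuronal sum the direction turns for 7 genes against Il-17ra-Cre and 20 against Il-17rc-Cre.

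Vesicle proteins were higher in 12 of 14 cases in both comparisons, with Syn3 and Sv2c passing in neither. Rab3a (chromosome 8, 70754679 to 70758677), the vesicle GTPase that docks vesicles through RIM, was at 277.4, 376.8 and 841.1 CPM in Il-17ra-Cre and at 2376, 2388 and 2446 CPM in Il-17rb-Cre. In Il-17rc-Cre it was at 730.7, 548.0, 701.4 and 425.5 CPM, again below every Il-17rb-Cre library. Its log2 fold changes were 2.27 ± 0.38 and 2.00 ± 0.34. Syn1 (chromosome X, 20860511 to 20921004), a synapsin that tethers vesicles in the reserve pool, had the smallest adjusted p of the 43 genes against Il-17ra-Cre (2.05 ± 0.18, edgeR adjusted p = 3.06e-05). It was at 270.7, 294.1 and 356.0 CPM there, at 1058, 1311 and 1437 CPM in Il-17rb-Cre and at 403.5, 459.5, 399.6 and 355.8 CPM in Il-17rc-Cre. The 3 Il-17ra-Cre libraries lay closer together for Syn1 than for Rab3a. Syn2, which has the same role, differed less, at 0.99 ± 0.29 and 0.83 ± 0.27 (edgeR adjusted p = 0.0207 and 0.032). The first call was lost without Il-17ra-Cre replicate 1 or 2 or Il-17rb-Cre replicate 3 (0.0515 to 0.0643). The second was lost without any 1 Il-17rb-Cre library or Il-17rc-Cre replicate 1, 3 or 4 (0.0572 to 0.104).

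The integral membrane proteins of the vesicle followed the same direction. Syp, or synaptophysin, the most abundant of them by mass in the vesicle, was at 99.5, 153.3 and 284.4 CPM in Il-17ra-Cre, 629.7, 875.6 and 755.8 CPM in Il-17rb-Cre and 174.6 to 235.5 CPM in Il-17rc-Cre. About 16.8% of its exonic length overlaps a predicted gene that itself had at most 0.106 CPM. Its relatives Syngr3 (2.04 ± 0.47 and 1.92 ± 0.43) and Syngr1 (1.44 ± 0.27 and 1.34 ± 0.25) were higher as well. Synpr, a synaptoporin of a subset of synapses, was higher by 1.52 ± 0.41 and 1.32 ± 0.37. Its calls were lost without Il-17rb-Cre replicate 3 (edgeR adjusted p = 0.0525 and 0.0959), the first also without Il-17ra-Cre replicate 2 (0.0535) and the second without Il-17rb-Cre replicate 2 (0.0576). Of the SV2 glycoproteins, the receptors through which botulinum toxin A enters neurons, Sv2b was higher by 1.50 ± 0.34 and 1.41 ± 0.31. Sv2a was at 183.3, 162.3 and 138.1 CPM in Il-17ra-Cre and 202.9, 285.0 and 263.2 CPM in Il-17rb-Cre. Its difference of 0.64 ± 0.21 (edgeR adjusted p = 0.0369) was the smallest of the 34 calls against Il-17ra-Cre, and it was lost without Il-17ra-Cre replicate 2 or 3 or Il-17rb-Cre replicate 2 or 3 (0.0791 to 0.134). Against Il-17rc-Cre the Sv2a difference was 1.08 ± 0.20 (0.0019). Sv2c was at 2.91, 2.65 and 14.9 CPM in Il-17ra-Cre and 7.43, 12.2 and 11.1 CPM in Il-17rb-Cre, and passed against Il-17ra-Cre without replicate 3 of that group (1.88, edgeR adjusted p = 0.00289).

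The remaining vesicle proteins were Rab3b, Rab3c, Dnajc5 and Syn3. Rab3b was at 32.1, 42.7 and 43.8 CPM in Il-17ra-Cre, 166.2, 165.4 and 186.1 CPM in Il-17rb-Cre and 92.4, 69.0, 102.5 and 48.2 CPM in Il-17rc-Cre. The 3 groups did not overlap, in the order Il-17ra-Cre, Il-17rc-Cre, Il-17rb-Cre. Rab3c was higher by 1.16 ± 0.21 and 1.11 ± 0.19, and Dnajc5, the cysteine string protein that chaperones SNAP-25, by 0.86 ± 0.16 and 0.89 ± 0.15. Scaled to the sum of pan-neuronal markers, Dnajc5 was lower than in Il-17rc-Cre (-0.61, edgeR adjusted p = 0.0297). Syn3, a synapsin best known from development, was at 1.39 to 5.77 CPM over all libraries. It shares 14.1% of its exonic length with Timp3, a protease inhibitor gene that lies within it and was at 57.3 ± 18.5 CPM (SD, n = 3) in Il-17ra-Cre, 2.68 ± 0.678 (n = 3) in Il-17rb-Cre and 95.0 ± 15.6 (n = 4) in Il-17rc-Cre. Without strand, reads of both genes cannot be told apart, and the part of Timp3 in the Syn3 values was not tested.

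Active zone genes were the least uniform role, with 5 of 9 higher in both comparisons. Rims3 (chromosome 4, 120854816 to 120896579), a short RIM that modulates calcium channels, had the largest log2 fold change of the 43 genes against Il-17ra-Cre, 2.47 ± 0.26 (edgeR adjusted p = 9.2e-05). It was at 47.3, 54.5 and 78.8 CPM in Il-17ra-Cre, at 260.6, 368.5 and 373.0 CPM in Il-17rb-Cre and at 91.5, 98.9, 69.2 and 62.7 CPM in Il-17rc-Cre. The long RIMs, scaffolds that bind Rab3 and Munc13, differed less. Rims1 was higher by 1.60 ± 0.26 and 1.55 ± 0.24, and Rims2 by 1.64 ± 0.27 and 1.23 ± 0.24. Ppfia3, a liprin that organises the active zone, was higher by 1.56 ± 0.24 and 1.53 ± 0.22. Unc13a, the Munc13 that primes most cortical synapses, was at 27.1, 41.4 and 40.3 CPM in Il-17ra-Cre, 72.1, 90.9 and 98.0 CPM in Il-17rb-Cre and 40.8, 71.9, 36.6 and 28.4 CPM in Il-17rc-Cre. Its difference of 0.97 ± 0.30 against Il-17rc-Cre (edgeR adjusted p = 0.0255) was lost without Il-17rb-Cre replicate 2 or 3 or Il-17rc-Cre replicate 1, 3 or 4 (0.0554 to 0.102).

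The giant scaffolds Bsn and Pclo, which span the active zone, passed in neither comparison. Bsn (chromosome 9, 108096022 to 108190384) was at 22.2, 36.8 and 35.4 CPM in Il-17ra-Cre, 36.1, 50.0 and 47.5 CPM in Il-17rb-Cre and 38.4, 62.6, 26.9 and 25.8 CPM in Il-17rc-Cre, so its groups overlapped. Pclo (chromosome 5, 14514918 to 14863459) was at 14.7, 18.6 and 15.5 CPM, 19.4, 19.1 and 26.0 CPM, and 16.9, 43.2, 14.9 and 16.4 CPM in the same order. Their log2 fold changes were 0.50 ± 0.34 and 0.40 ± 0.39 against Il-17ra-Cre and 0.21 ± 0.32 and -0.09 ± 0.36 against Il-17rc-Cre. Scaled to the sum of pan-neuronal markers both were lower than in Il-17rc-Cre (-1.23 and -1.52, edgeR adjusted p = 0.00345 and 0.0016). Unc13b and Unc13c, Munc13 forms of other synapses, were at 1.55 to 13.8 CPM and 1.91 to 14.1 CPM over all libraries. Unc13c was at 10.2 and 14.1 CPM in Il-17rc-Cre replicates 1 and 3 and at 1.91 and 3.58 CPM in replicates 2 and 4. Its difference of -1.35 ± 0.60 against Il-17rc-Cre passed without replicate 2 (-1.67, edgeR adjusted p = 0.0217).

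Across the 43 genes the size of the difference went with transcript length and level. Spearman's rho between log2 fold change and exonic length was -0.50 against Il-17ra-Cre and -0.52 against Il-17rc-Cre, where over all 20301 genes it was -0.06 and -0.05. With average log2 CPM rho was 0.53 and 0.58, against 0.08 and 0.06 over all genes. The average includes the Il-17rb-Cre libraries, so a gene that is higher there has a higher average by construction. Level and difference are therefore not separate measures. These are descriptions over genes that share libraries and depth, and both comparisons share the Il-17rb-Cre libraries. Bsn and Pclo, with 15938 and 22457 exonic bases, are among the longest of the 43, whose median is 6953.

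Within families, the share of each paralogue was compared as a log2 ratio inside each library, which depends on how libraries are scaled only through a pseudocount of 0.5 CPM. Of 24 pairs, 1 differed between the 3 groups after adjustment over the pairs, Syt7 to Syt1 (exact permutation test over 4200 assignments of the 10 libraries, p = 0.000952, adjusted p = 0.0229). Its log2 ratio was -3.49, -2.91 and -3.48 in Il-17ra-Cre, -3.97, -4.09 and -4.17 in Il-17rb-Cre, and -3.68, -3.95, -3.75 and -3.92 in Il-17rc-Cre. Relative to Syt1, Syt7 was thus highest in Il-17ra-Cre and lowest in Il-17rb-Cre, with no overlap between any of the groups. The number of calls moved with the settings: with 0.1 CPM as pseudocount in place of 0.5 there were 0 calls and with 2 CPM there were 5, and leaving out 1 library gave from 0 to 11. It gave 4 without Il-17ra-Cre replicate 1, 11 without replicate 3, and 0 without Il-17ra-Cre replicate 2 or any 1 Il-17rb-Cre library. Syt7 to Syt1 was among the 4 and among the 11. Without 1 Il-17rc-Cre library, the smallest p the design allows is 0.00357, so that 1 pair alone cannot go below an adjusted p of 0.0857. Without Il-17rc-Cre replicate 2 there were 2 calls, Syt7 to Syt1 among them. The counts of 0 without Il-17rc-Cre replicate 1, 3 or 4 say nothing on whether the Syt7 to Syt1 difference is stable.

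A further 3 pairs had an adjusted p of 0.0571 in the same exact permutation test. The log2 ratio of Syt11 to Syt1 was 3.04, 2.20 and 0.64 in Il-17ra-Cre, -0.17, -0.17 and -0.15 in Il-17rb-Cre and 0.81, 1.06, 0.97 and 0.99 in Il-17rc-Cre. The Il-17rb-Cre libraries were nearly identical in this ratio, and every other library lay above them. Rab3c relative to Rab3a had a mean of -5.05 ± 0.18 (SD, n = 3) in Il-17rb-Cre against -3.78 ± 0.55 (n = 3) in Il-17ra-Cre and -4.12 ± 0.25 (n = 4) in Il-17rc-Cre. Rims3 relative to Rims1 went the other way, at 1.64 ± 0.24 in Il-17rb-Cre against 0.83 ± 0.23 and 1.12 ± 0.23. Of the pairs with an unadjusted p under 0.05, which numbered 9, Syn2 to Syn1 and Cplx2 to Cplx1 had an adjusted p of 0.08 (exact permutation test). Syn2 to Syn1 was lower in Il-17rb-Cre than in every other library, at -1.35, -1.65 and -1.69 against -1.05 to -0.17. Cplx2 to Cplx1 was highest in Il-17ra-Cre, at -2.02, -2.30 and -2.06, and overlapped between the other groups. Other pairs kept a similar ratio, such as Vamp1 to Vamp2 (means of -3.91, -3.72 and -3.67; exact permutation p = 0.665) and Pclo to Bsn (-0.90, -1.03 and -0.79; p = 0.529), which does not show that they are equal.

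**Figure D3:**
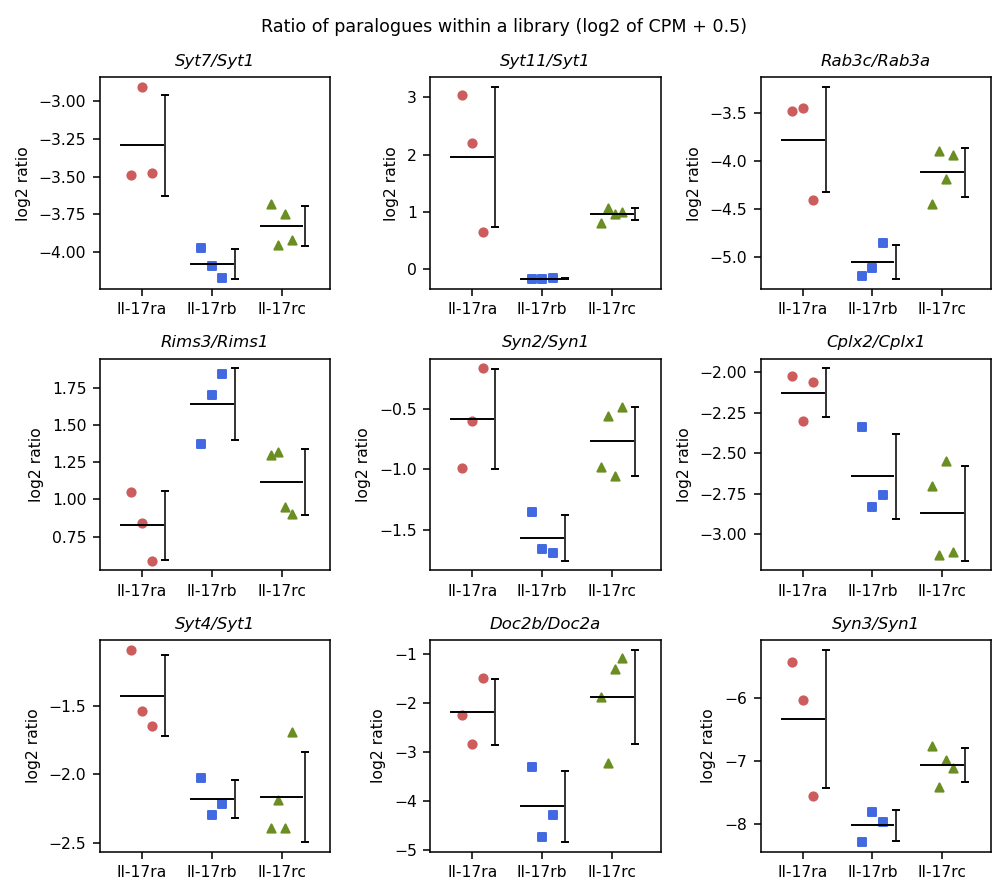
Log2 ratio of paralogues within each library for the 9 pairs with an unadjusted exact permutation p under 0.05, with 1 point per library, the group mean as a line and the SD as a bar. For Syt7 to Syt1 the Il-17ra-Cre points (-3.49 to -2.91) lie above and the Il-17rb-Cre points (-4.17 to -3.97) below all others.

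Between Il-17ra-Cre and Il-17rc-Cre no release gene was called, with 0 higher and 0 lower of 43, where 1.38% of all genes were called higher and 0.798% lower (edgeR). At an unadjusted p under 0.05 there were 7, of which 3 were higher and 4 lower in Il-17ra-Cre. By limma voom 2 were called higher and 9 lower, where 13.4% of all genes were higher and 9.18% lower. By DESeq2 1 was higher and 3 lower, where 3.26% and 3.68% of all genes were. The median log2 fold change was -0.16. Rab3b had the smallest p among these (-0.98 ± 0.25, edgeR adjusted p = 0.0691) and Syt11 the next (0.80 ± 0.22, edgeR adjusted p = 0.0855), and every Il-17ra-Cre library lay below every Il-17rc-Cre library for 2 of the 43, Rab3b and Syt2, against 6.65% of all genes. The count depended on Il-17ra-Cre replicate 3: without it 9 genes were lower (Snap25, Vamp2, Napb, Syt5, Syt12, Cplx1, Rab3a, Rab3b and Rims2, named after their values were seen) and 1 higher (Syt11), with a median of -0.54. Calls over all genes went up as well in that fit, to 7.31% higher and 6.38% lower. With Il-17ra-Cre replicates 1 and 2 left out, the single library left gave a median of 0.25 and 0 calls.

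The 5 lists of other genes of the release cycle, 95 of 96 of them tested, had calls in both directions. Against Il-17ra-Cre 38 were higher and 14 lower in Il-17rb-Cre, and against Il-17rc-Cre 47 were higher and 12 lower. These are 40% and 14.7%, and 49.5% and 12.6%, where the shares of all genes were 16.4% and 24.4%, and 17.7% and 21.9%. The vesicular proton pump, which loads the energy that drives transmitter uptake, had 11 of 16 genes higher and 0 lower against Il-17ra-Cre and 14 higher and 0 lower against Il-17rc-Cre. Its neuronal subunit Atp6v1g2 was at 139.0, 246.0 and 628.2 CPM in Il-17ra-Cre and at 1864, 1915 and 1731 CPM in Il-17rb-Cre (2.44 ± 0.48, edgeR adjusted p = 0.00265). Of 24 endocytosis genes, which retrieve vesicle membrane, 10 were higher and 3 lower against Il-17ra-Cre and 13 higher and 2 lower against Il-17rc-Cre. Sh3gl2, the brain endophilin, was higher by 2.29 ± 0.35 and 2.21 ± 0.32, and Ston2, an adaptor for synaptotagmin retrieval, had -6.18 ± 0.47 and -5.90 ± 0.46. In priming, tethering and dense-core release 6 of 17 were higher and 1 lower against Il-17ra-Cre, and 6 higher and 2 lower against Il-17rc-Cre. The list medians were 0.03 and 0.32, and Cadps2 was at 2.08 ± 0.16 against Il-17rc-Cre. Of 22 other paralogues tested, 7 were higher and 4 lower against Il-17ra-Cre and 9 higher and 2 lower against Il-17rc-Cre, with Syt16 at 2.18 ± 0.35 and 1.86 ± 0.32.

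Broadly expressed SNAREs went both ways, with 4 of 16 higher and 6 lower against Il-17ra-Cre and 5 higher and 6 lower against Il-17rc-Cre. On 16 genes, these shares of 25% and 37.5%, and 31.2% and 37.5%, are not far from those of all genes. The 6 lower genes were Snap23, Snap29, Vamp3, Vamp5, Vamp8 and Stx2 in both. Some of these names fall outside the rule for named genes and were chosen after their values were seen. The broadly expressed SNAREs called higher are not named. Snap23, the SNAP-25 relative of non-neuronal secretion, was at 73.6, 63.5 and 37.3 CPM in Il-17ra-Cre, 3.79, 4.92 and 3.96 CPM in Il-17rb-Cre and 21.5 to 49.3 CPM in Il-17rc-Cre. Beside it Snap25 ran in the opposite direction, and no library of Il-17rb-Cre overlapped with another group for either gene. Vamp8, the SNARE of regulated secretion in many tissues, was at 2.11 to 2.93 CPM in Il-17rb-Cre against 67.1 to 79.5 and 57.7 to 80.0 CPM, and Vamp5, a SNARE of muscle and endothelium, had -5.80 ± 0.51 and -4.87 ± 0.48. Vamp3, or cellubrevin, was at 12.3 ± 1.65 CPM (SD, n = 3) against 151.5 ± 55.6 (n = 3) and 117.2 ± 6.32 (n = 4). Among the synaptogyrins, Syngr2, the form outside neurons, was at 1.00 to 1.88 CPM in Il-17rb-Cre against 27.9 to 76.7 and 16.5 to 35.6 CPM, while Syngr1 and Syngr3 were higher. Between Il-17ra-Cre and Il-17rc-Cre 4 of the 95 were higher and 0 lower, where 1.38% of all genes were higher and 0.798% lower. Among the 4 were Bin1 (1.97 ± 0.37), Sh3gl3 (1.57 ± 0.34) and Picalm (1.16 ± 0.21), all in endocytosis. The count higher was 0 without any 1 library other than Il-17ra-Cre replicate 3 and Il-17rc-Cre replicate 2. Without that Il-17ra-Cre library it was 17, where 7.31% of all genes were higher and 6.38% lower. Leaving out 1 library gave 0 to 8 of these genes lower.

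**Figure D4:**
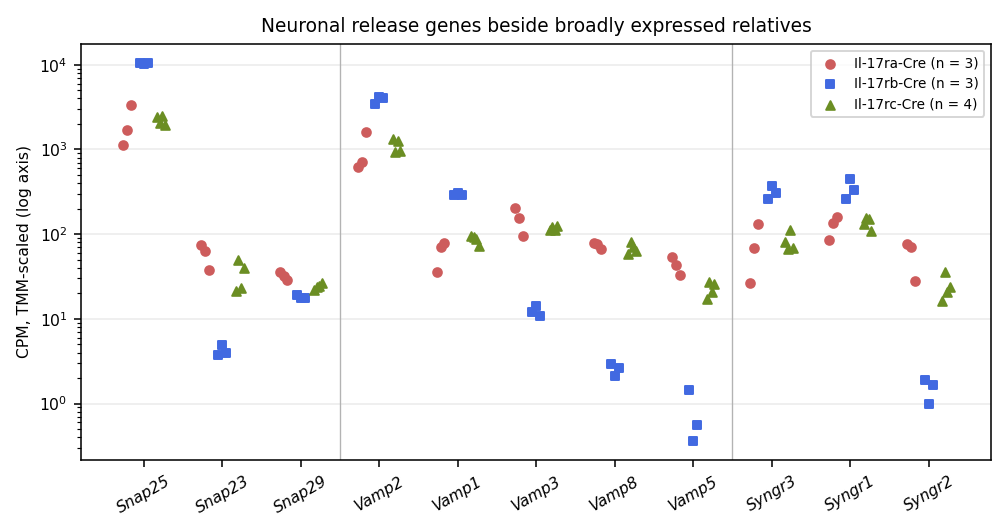
Levels in CPM (TMM-scaled, log axis) of release SNAREs and synaptogyrins beside broadly expressed relatives of the same family, with 1 point per library. In Il-17rb-Cre (squares) Snap25, Vamp2, Vamp1, Syngr3 and Syngr1 lie above the other groups, and Snap23, Snap29, Vamp3, Vamp8, Vamp5 and Syngr2 lie below them. The relatives drawn are a chosen part. Of 16 broadly expressed SNAREs, 4 were called higher against Il-17ra-Cre and 5 against Il-17rc-Cre, and none of those is drawn.

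Markers of other cell types moved with these differences. The 43 release genes summed to 5793, 7126 and 11702 CPM in Il-17ra-Cre, 28573, 31255 and 30847 CPM in Il-17rb-Cre, and 9503, 8827, 9533 and 7739 CPM in Il-17rc-Cre. Excitatory neuron markers had the same order of libraries within Il-17ra-Cre, at 1568, 1797 and 6723 CPM, and were at 17809 to 20875 CPM in Il-17rb-Cre and 2176 to 3596 CPM in Il-17rc-Cre. Of the 9, 8 were higher and 0 lower against Il-17ra-Cre and 9 higher against Il-17rc-Cre. Pan-neuronal markers were at 4541 to 5303, 8810 to 8816 and 2787 to 3655 CPM in the 3 groups, with 10 of 14 higher and 1 lower (Tubb3) against Il-17ra-Cre and 12 higher against Il-17rc-Cre. Astrocyte markers summed to 6931 to 13636 CPM in Il-17ra-Cre, 636.7 to 655.3 CPM in Il-17rb-Cre and 11278 to 17643 CPM in Il-17rc-Cre, with all 10 lower in both comparisons. Microglial markers were at 661.3 to 1139, 15.5 to 22.0 and 31.5 to 178.0 CPM, with 2 of the 11 at 0 in every Il-17rb-Cre library. All 10 oligodendrocyte markers were lower against Il-17ra-Cre and 1 of 10 against Il-17rc-Cre, and mural markers were lower for 8 of 8 in both. The part of these cell types in the differences of the release genes was not tested.

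**Figure D5:**
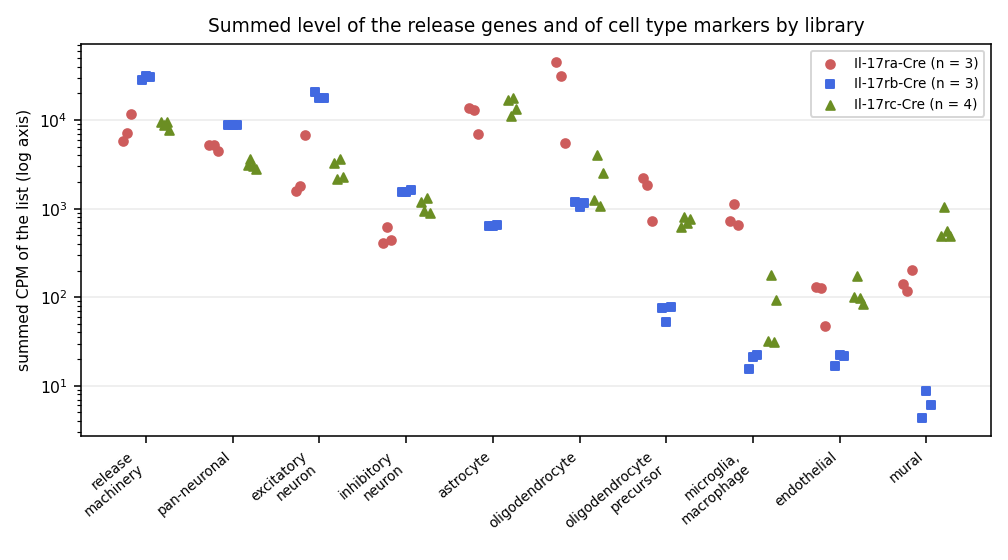
Summed CPM (TMM-scaled, log axis) of the 43 release genes and of 9 cell type marker lists, with 1 point per library. The release genes and the excitatory markers are highest in Il-17rb-Cre (28573 to 31255 and 17809 to 20875 CPM), and the astrocyte markers are lowest there (636.7 to 655.3 CPM).

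The release genes were also compared relative to other neuronal genes. Scaled to the summed pan-neuronal markers, which hold none of the 43, the median of all genes shifted from -0.092 to -0.91 against Il-17ra-Cre and from 0.023 to -1.47 against Il-17rc-Cre. On that scale 18 release genes were higher and 1 lower than in Il-17ra-Cre, with a median of 0.73, where 3.31% of all genes were higher and 44.8% lower. Against Il-17rc-Cre 0 were higher and 6 lower with a median of -0.12, where 0.335% were higher and 63.3% lower. By unadjusted p, 1 of the 43 was higher and 8 lower there. The sum leans on Tubb3, which made up 55.3% and 43.7% of it in Il-17ra-Cre replicates 1 and 2 and 10% in replicate 3. With each marker weighing the same (geometric mean, added after the data were seen), 17 were higher and 1 lower than in Il-17ra-Cre (median 0.40), where 2.8% of all genes were higher and 56.6% lower. Against Il-17rc-Cre 4 were then higher (Snap25 0.79, Stx1a 0.75, Rims3 0.64 and Rph3a 0.62) and 7 lower, with a median of -0.06, where 0.739% of all genes were higher and 61.5% lower. Those lower were Syt11 (-0.95), Doc2b (-2.76), Syn2 (-0.59), Dnajc5 (-0.54), Unc13c (-2.79), Bsn (-1.17) and Pclo (-1.47). Against Il-17ra-Cre, Snap25 stayed higher by 1.21, Cplx1 by 1.35 and Rims3 by 1.28 on the geometric scale (edgeR adjusted p = 0.00131, 0.00187 and 0.00063).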

How the data were processed

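The authors deposited raw counts per gene for 10 libraries. Reads were aligned with STAR 2.7.5c to mouse build GRCm38, per the submitters' processing notes. Libraries were made from amplified cDNA with the SMART-Seq v4 kit, per the labels' protocols, which marks no strand. How reads were assigned to genes, with which strand setting and annotation release, is not given in the sources used here. Counts without molecular identifiers are not independent molecules, and low counts vary more.

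Symbols, coordinates and exonic lengths came from GENCODE M21 (GRCm38), which matched all 55536 identifiers. Counts were filtered by edgeR's expression filter by group and scaled by TMM. The test was the quasi-likelihood F test of edgeR 4.0.16 under R 4.3.3, fitted to the 10 libraries together, with p-values adjusted by Benjamini-Hochberg over 20301 genes and a threshold of 0.05. The biological coefficient of variation was 0.489. CPM errors are SD, and log2 fold change errors are SE. Paralogue log2 ratios used a pseudocount of 0.5 CPM and an exact permutation test of the sum of squares between groups, which has no direction. The smallest p that this permutation test allows is 0.000476, and its p-values were adjusted over 24 pairs. The fit and the permutation test were tested on simulated data.

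All 43 members may be named. From the 5 other lists, the 3 genes per direction and comparison with the largest difference and an average log2 CPM of at least 3 were named, with stated exceptions. From the 9 cell type lists the 2 most abundant markers may be named. The members, lists and most alternatives were chosen with earlier results of these data known. Alternatives were DESeq2 1.42.0, limma 3.58.1 voom, other scalings and filters, 2-group fits, replicate blocks, other pseudocounts and libraries left out. Replicate numbers did not pair the samples, so no block was fitted in the reported results.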

Additional observations from a re-analysis of the deposited data

Results flagged for a closer look

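In the groups of 4 Il-17rc-Cre libraries, 3 values out of 67 groups examined lay farther from the other libraries than Dixon's 95% critical value allows, and chance gives about 1 in 20. Sv2a was at 158.8 CPM in Il-17rc-Cre replicate 2, against 102.9 to 109.1 CPM in the other 3 libraries. Pclo was at 43.2 CPM in the same library, against 14.9 to 16.9 CPM. The log2 ratio of Synpr to Syp was -2.55 in Il-17rc-Cre replicate 3, against -3.11 to -3.06 in the others. Groups of 3 libraries were not examined in this way.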

How the results depend on the processing

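Outside the 2 neuronal scalings, 24 of the 34 genes higher against Il-17ra-Cre and 28 of the 34 higher against Il-17rc-Cre kept their call under each of 21 alternatives. Leaving out 1 library gave 30 to 35 release genes higher and 0 to 1 lower against Il-17ra-Cre (median 1.37 to 1.98), and 30 to 36 higher and 0 to 1 lower against Il-17rc-Cre (median 1.25 to 1.47). It gave 0 to 1 higher and 0 to 9 lower for Il-17ra-Cre against Il-17rc-Cre (median -0.54 to 0.02). For the other release genes it gave 36 to 42 higher and 13 to 19 lower, 38 to 53 higher and 10 to 12 lower, and 0 to 17 higher and 0 to 8 lower in the same order, and for paralogue pairs 0 to 11. Without Il-17ra-Cre replicates 1 and 2 together, the release gene medians were 1.12 for Il-17rb-Cre against Il-17ra-Cre and 0.25 for Il-17ra-Cre against Il-17rc-Cre, the other release genes higher were 22 and 0, and 8 pairs were called. The single library left is then assumed to vary like the other groups. That fit called 24 release genes higher than in Il-17ra-Cre. Without Il-17rc-Cre replicates 1 and 3, 0 pairs were called, in a design where 1 pair alone cannot pass, and 0 other release genes were higher for Il-17ra-Cre against Il-17rc-Cre.

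By limma voom 1 and 2 release genes were lower in Il-17rb-Cre against Il-17ra-Cre and Il-17rc-Cre, and 2 were higher and 9 lower for Il-17ra-Cre against Il-17rc-Cre. DESeq2 gave 1 lower against Il-17rc-Cre, and 1 higher and 3 lower for Il-17ra-Cre against Il-17rc-Cre. A filter at 1 CPM in 3 libraries gave 1 lower there. The other release genes higher there, 4 as reported, were 2 with DESeq2 size factors and 0 with only the 2 groups. With a replicate block by title number or library number they were 0 too. The block gave 34, 33 and 0 release genes higher by title number and 33, 32 and 0 by library number. It called 0 paralogue pairs over 216 assignments, but the smallest p it allows is 0.0278, so it could not have called 1 pair alone. Correlations between libraries of the same number lay between -0.0826 and 0.181, so the numbers were not taken as pairs. Pairs called were 0 with a pseudocount of 0.1 CPM and 5 with 2 CPM.

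Neuronal scaling was the choice that changed the most. Scaled to the pan-neuronal sum, release genes were 18 higher and 1 lower against Il-17ra-Cre (median 0.73) and 0 higher and 6 lower against Il-17rc-Cre (median -0.12). For Il-17ra-Cre against Il-17rc-Cre 0 were higher and 16 lower (median -0.79). In that comparison 1.66% of all genes were higher and 24.2% lower, with a median of -0.64, so much of this shift was shared by all genes. The other release genes were 9 higher and 42 lower, 1 higher and 53 lower, and 1 higher and 21 lower. Scaled to the geometric mean, release genes were 17 higher and 1 lower (median 0.40), 4 higher and 7 lower (median -0.06), and 0 higher and 0 lower for Il-17ra-Cre against Il-17rc-Cre (median -0.48, with 0 higher and 14 lower at an unadjusted p under 0.05). The other release genes were 6 higher and 48 lower, 1 higher and 50 lower, and 0 higher. Against Il-17ra-Cre the direction turned for 7 of 43 genes by sum and 13 by geometric mean, and against Il-17rc-Cre for 20 by each. Among genes called on the TMM scale or on a neuronal scale, those that turned against Il-17ra-Cre were Sv2a (-0.17 by sum, -0.66 by geometric mean) and, by geometric mean, Napa (-0.04), Syt4 (-0.16), Syt7 (-0.19), Syn2 (-0.16), Rab3c (-0.04) and Dnajc5 (-0.36). All of them were called on the TMM scale, and none passed on a scale where it turned. Those that turned against Il-17rc-Cre, by sum and by geometric mean, were Napa (-0.32, -0.25), Nsf (-0.16, -0.09), Syt2 (-0.56, -0.50), Syt7 (-0.12, -0.06), Syt11 (-1.02, -0.95), Syn2 (-0.65, -0.59), Synpr (-0.18, -0.11), Syngr1 (-0.14, -0.07), Sv2a (-0.39, -0.33), Sv2b (-0.06, -0.00), Rab3b (-0.34, -0.28), Rab3c (-0.38, -0.31), Dnajc5 (-0.61, -0.54), Rims2 (-0.26, -0.19), Unc13a (-0.48, -0.42) and Bsn (-1.23, -1.17). Of those that turned against Il-17rc-Cre, Syt11, Dnajc5 and Bsn passed on both neuronal scales and Syn2 by geometric mean, and the others on neither. Genes that turned without a call on the TMM scale or a neuronal scale were Bsn (-0.32, -0.70), Pclo (-0.41, -0.85), Unc13b (-0.22, -0.55), Unc13c (-0.69, -1.17), Syn3 (-0.50, -1.13) and Sv2c (-0.32, -0.44) against Il-17ra-Cre, and Syt12 (-0.62, -0.54), Syn3 (-0.67, -0.60), Sv2c (-0.74, -0.67) and Unc13b (-0.60, -0.54) against Il-17rc-Cre. On the TMM scale, 10 of the 14 pan-neuronal markers were called higher in Il-17rb-Cre and 1 lower against Il-17ra-Cre. Against Il-17rc-Cre 12 were higher and 0 lower. The part of these marker differences in the changes of direction was not tested. Counts were lowest for Doc2b, at 12 to 274 per library; the part of depth in its spread was not tested.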
